A study of Mus musculus with 36 samples.

Results

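The genes described here lie in a window of mouse chromosome 8, from 120 to 121 Mb of the mm10 build, in which many peaks of tagged histone H4 were called. The members were the 7 genes listed for that window: Gse1, Irf8, Crispld2, Zdhhc7, Gins2, Emc8 and Cox4i1. They are 7 of 21887 protein-coding genes on the named chromosomes of the RefSeq gene table. The window was selected on the number of peaks in these lists and on the sharing of peaks between them, so both are given as a description and neither is tested. It was proposed as holding few genes. That was not borne out against all windows, since it held 11 protein-coding genes by midpoint, rank 619 of 2732 windows of 1 Mb whose median was 5.

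The series mapped where tagged H4 is incorporated in mouse embryonic stem cells (mESCs), parental or knockout (HiraKO, H33DKO, DAXXKO), and in neural progenitor and neural cells made from mESCs. ChIP-seq sequences the DNA that comes down with a protein in a pulldown from sheared, fixed chromatin, here on Pierce Anti-HA magnetic beads, which bind the HA epitope tag. The 4 lists used come from parental mESCs, with none of those knockouts, that stably express a PiggyBac transposon construct: PiggyBAC_Empty vector, PiggyBAC_H4WT_3HA, PiggyBAC_H4K91R_3HA or PiggyBAC_H4K91Q_3HA. Each group was 1 library, so no difference between groups has a replicate check. The empty-vector cells carry no tagged histone by their label and give the background of the pulldown. In H4K91R a lysine of H4 is replaced by arginine, which keeps the positive charge, and in H4K91Q by glutamine, often used to mimic acetylated lysine. The tagged H4 was made from a transgene in cells that keep their own H4 genes. Peak lists hold no expression values, so the cell type was not checked against its markers.

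Histone H4 pairs with H3 in the core of every nucleosome, and newly made H3 and H4 are laid down by chaperones, both during replication and at genes and regulatory elements outside it. Tagged H4 made from a transgene is recovered where the cell has built it into chromatin. Gse1 encodes a coiled-coil protein found in corepressor complexes with the demethylase LSD1 and histone deacetylases, and Irf8 encodes an interferon regulatory factor best known for directing myeloid and dendritic cell development. Crispld2 encodes a secreted cysteine-rich protein, Zdhhc7 a palmitoyltransferase of the Golgi, Gins2 a subunit of the GINS complex of the replicative helicase, Emc8 a subunit of the endoplasmic reticulum membrane complex, and Cox4i1 a subunit of cytochrome c oxidase.

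The sequences at the gene starts are shown because tagged H4 was called at or beside nearly all of them. The RefSeq promoter table of GRCm38.p6, the same build as mm10, runs from 250 bases before to 50 bases after each listed start and matched 4 of the 7 members. Gins2, Emc8 and Cox4i1 had no entry. Crispld2, Gse1 and Irf8 are on the plus strand and Zdhhc7 is on the minus strand. Each sequence is written 5′ to 3′ on the strand of its gene, and capitals mark matches on either strand to 7 motifs searched. The first Irf8 start is at 120736358 and the second at 120738639, and the Gse1 start shown is the last of its 3 listed starts.
Irf8, first start, chr8:120736108-120736407: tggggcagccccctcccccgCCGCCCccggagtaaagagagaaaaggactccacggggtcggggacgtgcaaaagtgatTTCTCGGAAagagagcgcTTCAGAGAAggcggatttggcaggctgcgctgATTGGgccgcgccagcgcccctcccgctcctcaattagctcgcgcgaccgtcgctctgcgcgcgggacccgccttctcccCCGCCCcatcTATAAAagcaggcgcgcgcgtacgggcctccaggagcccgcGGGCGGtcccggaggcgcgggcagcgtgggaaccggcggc
Irf8, second start, chr8:120738389-120738688: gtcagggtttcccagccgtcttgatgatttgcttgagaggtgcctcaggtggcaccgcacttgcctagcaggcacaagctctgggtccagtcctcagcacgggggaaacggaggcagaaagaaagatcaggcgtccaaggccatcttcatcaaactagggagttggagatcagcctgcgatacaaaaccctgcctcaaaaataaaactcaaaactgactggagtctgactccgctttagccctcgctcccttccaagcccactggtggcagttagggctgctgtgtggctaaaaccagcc
Gse1, last start, chr8:120537159-120537458: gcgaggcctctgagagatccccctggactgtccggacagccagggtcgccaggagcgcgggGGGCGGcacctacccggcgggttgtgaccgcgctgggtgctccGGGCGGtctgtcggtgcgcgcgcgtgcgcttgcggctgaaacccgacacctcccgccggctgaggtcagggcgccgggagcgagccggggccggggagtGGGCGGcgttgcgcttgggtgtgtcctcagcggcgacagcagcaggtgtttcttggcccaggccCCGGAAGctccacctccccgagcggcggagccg
Zdhhc7, chr8:120101423-120101722: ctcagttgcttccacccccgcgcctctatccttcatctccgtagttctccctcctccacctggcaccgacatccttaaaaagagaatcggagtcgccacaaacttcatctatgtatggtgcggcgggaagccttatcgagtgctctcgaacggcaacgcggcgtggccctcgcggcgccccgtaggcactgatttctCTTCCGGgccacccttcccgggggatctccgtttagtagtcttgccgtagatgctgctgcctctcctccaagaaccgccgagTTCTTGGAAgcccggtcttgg
Crispld2, chr8:119992188-119992487: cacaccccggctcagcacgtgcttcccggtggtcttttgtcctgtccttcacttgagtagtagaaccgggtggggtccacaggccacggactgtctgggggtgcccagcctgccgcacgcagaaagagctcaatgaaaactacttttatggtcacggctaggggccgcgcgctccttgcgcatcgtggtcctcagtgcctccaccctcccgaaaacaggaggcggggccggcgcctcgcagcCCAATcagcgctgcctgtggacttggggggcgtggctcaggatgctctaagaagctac

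The motifs were GGGCGG (GC box, found in 35.7% of the 32851 promoters of the table), CCAAT (37.4%), TATAAA (13.6%), TTCNNNGAA (STAT site, 8.30%), CCGGAAG (ETS site, 8.86%), the core of the interferon response element (3.44%) and the NRF1 site (0.971%). The first Irf8 promoter held 3 GC boxes, 1 CCAAT, 1 TATAAA and 2 STAT-type matches. Its TATAAA began -31 bases from the start, and the STAT-type matches began at -171 and -153. No match was found in the second Irf8 promoter, so it is printed with no capitals. At the last Gse1 start there were 3 GC boxes and 1 ETS-type match. Zdhhc7 had 1 ETS-type and 1 STAT-type match, and Crispld2 had 1 CCAAT, at -8. The last 2 motifs matched none of these windows, which says only that those letters were absent there.

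The Irf8 starts differed in composition as well. The first Irf8 promoter had 38 CpG dinucleotides and a GC content of 70%, against 8 CpG and 54.7% for the second. Over all promoters the medians were 7 CpG and 52.7% GC. By CpG number the first Irf8 promoter stood at percentile 95.6 and the last Gse1 promoter, with 37 CpG, at percentile 95.0. Crispld2 with 20 CpG and Zdhhc7 with 25 CpG stood at percentiles 75.2 and 83.1. All members in the promoter table thus had at least 1 start richer in CpG than the median promoter.

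A region here is a peak of 1 list as the authors' peak caller drew it; no peaks within a list overlapped or touched. A region was placed in the window by its midpoint. The window held 24 of 3007 empty-vector regions, 401 of 69158 H4WT regions, 254 of 49155 H4K91R regions and 6 of 14314 H4K91Q regions. These were 0.798%, 0.580%, 0.517% and 0.0419% of the lists. H4WT regions covered 14.1% of its bases, H4K91R regions 8.09%, empty-vector regions 0.466% and H4K91Q regions 0.346%. The H4WT and H4K91R lists were thus dense here, and the H4K91Q list was not.

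Among the 2732 windows the counts had rank 2 for H4WT, rank 1 for H4K91R and rank 752 for H4K91Q, against medians of 10, 10 and 3 regions. With the tagged lists shortened to 14314 peaks each, the ranks were 7 for H4WT and 4 for H4K91R. In the empty-vector list the window had rank 3, equal with a window of chromosome 11, against a median of 0. A window rich in H4WT and H4K91R regions was therefore also rich in empty-vector regions, whose part in the tagged counts was not tested. The richest H4WT window, on chromosome 10 from 80 to 81 Mb, held 492 regions and 54 protein-coding genes. Of the 69 windows with 11 genes, this one had the most empty-vector, H4WT and H4K91R regions, where the medians were 1, 24 and 19. In H4K91Q it had rank 37 of those 69.

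The dense stretch did not end at the window's bounds. The 1 Mb before it held 194 H4WT and 137 H4K91R regions, and the 1 Mb after it held 290 and 182. In H4K91Q these neighbours held 4 and 7 regions, much like the 6 between them. Chromosome 8 as a whole had 41.7 H4WT regions per Mb, rank 2 of 19 autosomes, and 30.6 H4K91R regions per Mb, rank 1. Its empty-vector density of 2.85 per Mb was also rank 1, while its H4K91Q density of 5.51 per Mb was rank 12.

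**Figure D1:**
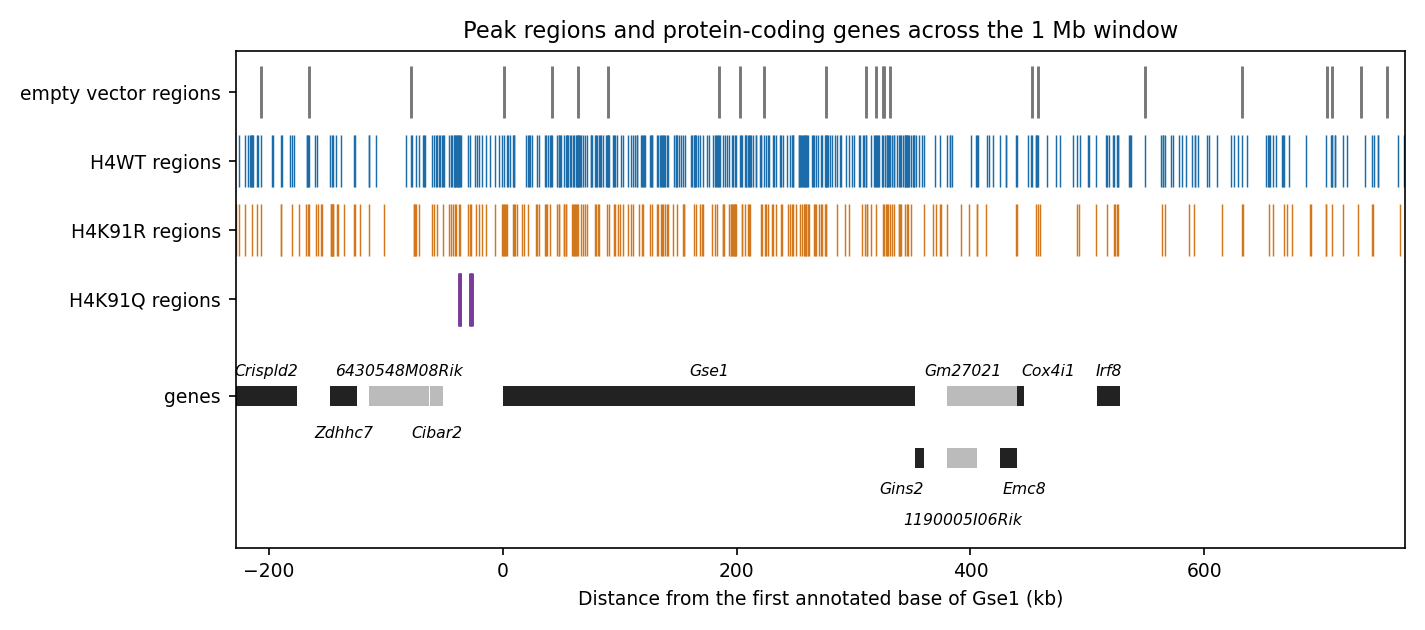
Midpoints of the regions of each list (ticks) and the protein-coding genes (bars; black for the 7 members, grey for the others) across the 1 Mb window, by distance in kb from the first annotated base of Gse1. The 401 H4WT and 254 H4K91R regions crowd over Gse1, and the 6 H4K91Q regions form a single group before it.

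Gene bodies held most of the H4WT and H4K91R regions of the window. The 11 protein-coding genes covered 584.29 kb, to which 299 H4WT regions (74.6%) and 197 H4K91R regions (77.6%) belonged. Over their whole lists, 71.0% of H4WT and 59.5% of H4K91R regions lay in protein-coding genes. The density in genes was 51.2 H4WT and 33.7 H4K91R regions per 100 kb, against 24.5 and 13.7 in the 415.71 kb between genes. Much of this contrast came from Gse1, which alone held 229 of the 299 and 152 of the 197. The window without Gse1, genes and gaps together, had 26.6 and 15.8 regions per 100 kb. All 6 H4K91Q regions lay between genes.

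Region density changed severalfold from one interval to the next. The block of Gse1 and Gins2, whose annotated ends overlap by 118 bp, had 64.6 H4WT and 42.4 H4K91R regions per 100 kb. The other protein-coding genes, which are no members, are 6430548M08Rik, Cibar2, Gm27021 and 1190005I06Rik. Of these Cibar2, a short neighbour, had 72.1 and 36.1 regions per 100 kb, from 8 and 4 regions. The 51.014 kb between Cibar2 and Gse1 had 49.0 and 31.4 regions per 100 kb. The 243.306 kb beyond Irf8 had 21.0 and 9.04, and the lowest H4WT density in an interval over 5 kb was 9.76, between Zdhhc7 and 6430548M08Rik. H4K91R regions outnumbered H4WT regions in 3 intervals: the gap between Crispld2 and Zdhhc7 (8 against 7), Zdhhc7 (11 against 6) and the gap between Gins2 and Gm27021 (4 against 2). In 20 bins of 50 kb the H4WT and H4K91R counts rose and fell together, with a Spearman's rho of 0.84. Neighbouring bins share libraries and are not independent, and their base composition was not measured. Between empty vector and H4WT rho was 0.36.

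**Figure D2:**
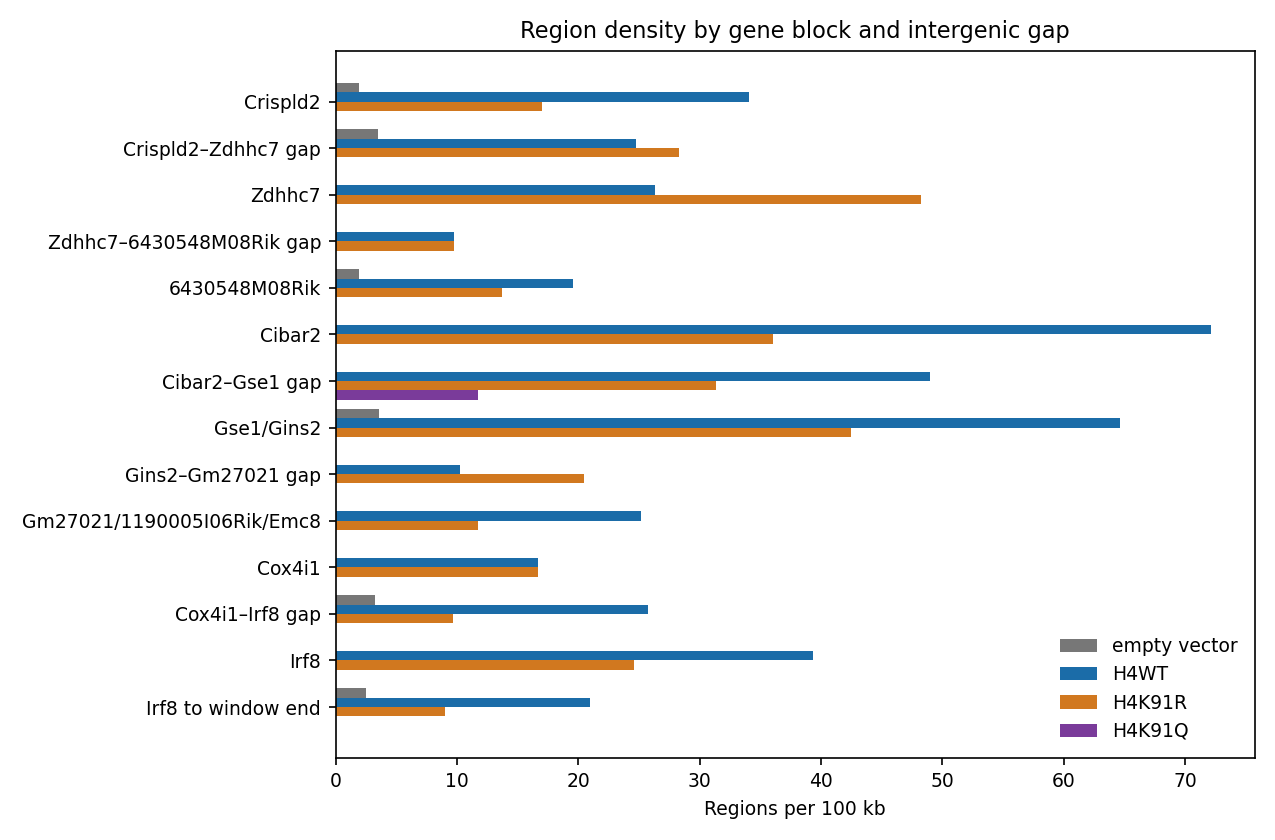
Regions per 100 kb (horizontal bars, from 0) in each gene block and each gap over 5 kb of the window, in genome order, for the 4 lists. H4WT exceeded H4K91R in most intervals, H4K91R was the denser at Zdhhc7 (48.2 against 26.3), and H4K91Q appeared only between Cibar2 and Gse1.

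All 7 members had at least 1 H4WT region and at least 1 H4K91R region overlapping the gene body. Over all protein-coding genes 66.5% had an H4WT region and 50.7% an H4K91R region. No member had an H4K91Q region (6.91% of all genes), and 2 of 7, Gse1 and Crispld2, had an empty-vector region (7.3% of all genes). Within 1 kb of a listed start, or of either gene end where no start was listed, all 7 again had an H4WT and an H4K91R region, and none had an empty-vector or H4K91Q region. The shares over all genes were 58.7%, 36.4%, 1.04% and 0.754%. For genes placed by both ends, as Gins2, Emc8 and Cox4i1 were, the H4WT and H4K91R shares were 61.6% and 40.4%. The facing ends of Emc8 and Cox4i1 were met by the same regions, so that place counts for both genes. All these member counts rest on the lists that chose the window. With the tagged lists shortened to 14314 peaks each, H4K91R regions were left in 4 of 7 bodies (23.8% of all genes) and at 2 of 7 starts (13.5%), and H4WT regions in 6 of 7 bodies (35.3%) and at 6 of 7 starts (29.3%).

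Gse1 accounted for much of the window. It spans chr8:120228501-120581383, 352.883 kb, and its body held 229 H4WT, 152 H4K91R, 13 empty-vector and 0 H4K91Q regions. That was 57.1% of the window's H4WT regions, 59.8% of its H4K91R regions and 54.2% of its empty-vector regions. Gse1 had the most regions of all 21887 genes in H4WT and in H4K91R, and was second only to Sfi1, with 17, in the empty-vector list. Next to it in H4WT came the longer predicted gene Gm37013, with 82.

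Genes as long as Gse1 held far fewer. Among 388 genes within 25% of the length of Gse1, the median was 3 H4WT and 3 H4K91R regions, and the highest were 67 and 43. H4WT density over Gse1 was 64.9 regions per 100 kb, 23.4 times that of all autosomes, and H4K91R density was 43.1, or 21.9 times. Some shorter genes were denser. In this window Cibar2 had 72.1 H4WT and Zdhhc7 had 48.2 H4K91R regions per 100 kb. The ranks of Gse1 given here are thus by count, and density was not ranked over genes. Empty-vector density over Gse1 was 3.68 per 100 kb, 30.3 times that of all autosomes, so the control list was concentrated there too, and its part in the tagged densities was not tested. The window without Gse1 was still 9.57 times as dense as all autosomes in H4WT and 8.02 times in H4K91R. With the tagged lists shortened to 14314 peaks each, Gse1 had 64 H4WT and 43 H4K91R regions and was still rank 1 in both. H4WT regions covered 25.3% of the Gse1 body and H4K91R regions 14.1%.

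**Figure D3:**
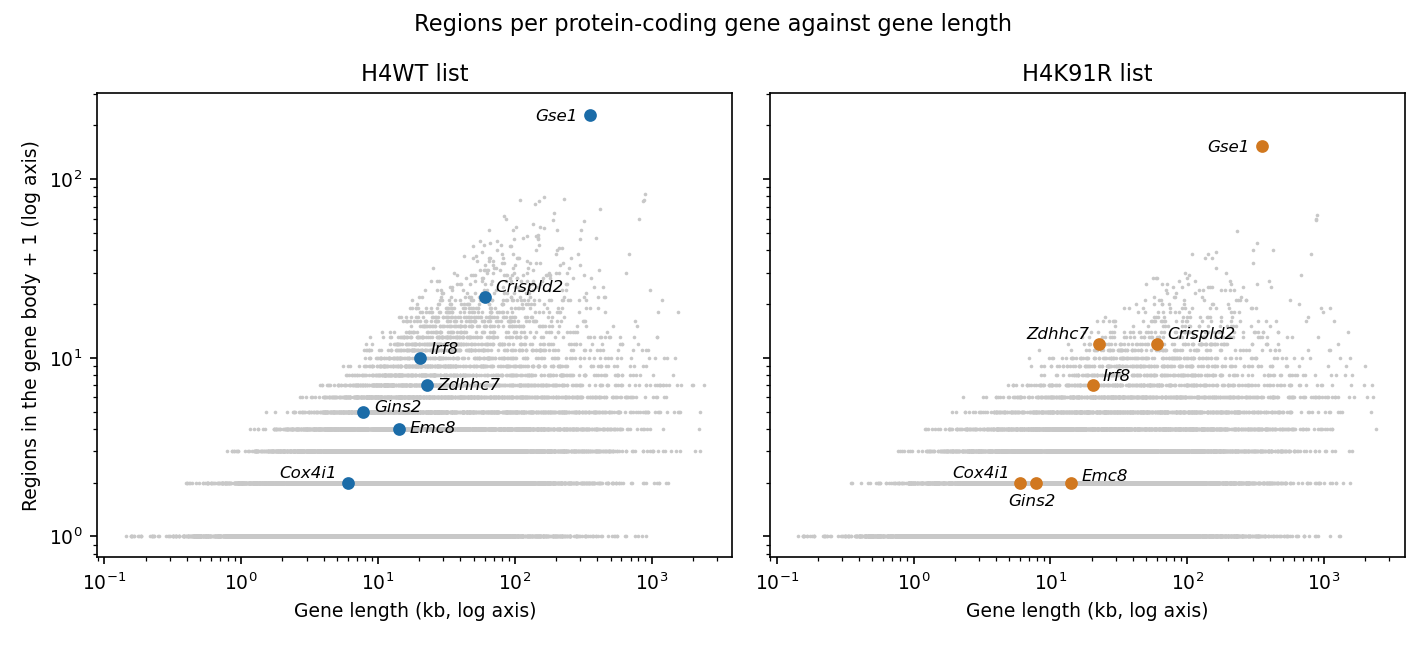
Regions in the gene body plus 1 (log axis) against gene length in kb (log axis) for each protein-coding gene (grey) and the 7 members (coloured), in the H4WT and H4K91R lists. Gse1, with 229 and 152 regions, lies above every other gene in both panels. The other members lie within the range of genes of their length, at or above the median, and Crispld2, Irf8 and Zdhhc7 well above it.

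Regions were spread along the whole of Gse1. In 10 equal parts of the body, each of about 35.3 kb, H4WT counts ran from 14 in part 1 to 32 in part 10, and H4K91R counts from 8 in part 9 to 21 in parts 2 and 6. Each part held regions of both lists. Neighbouring H4WT regions were a median of 719 bp apart, and the longest stretch without one was 9673 bp. For H4K91R the median was 1153 bp and the longest 11464 bp. The 13 empty-vector regions were a median of 20992.5 bp apart, and 4 of them fell in part 10. In 83 of 228 gaps the next H4WT region lay within 500 bp, so runs of close regions are counted here as separate ones.

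**Figure D4:**
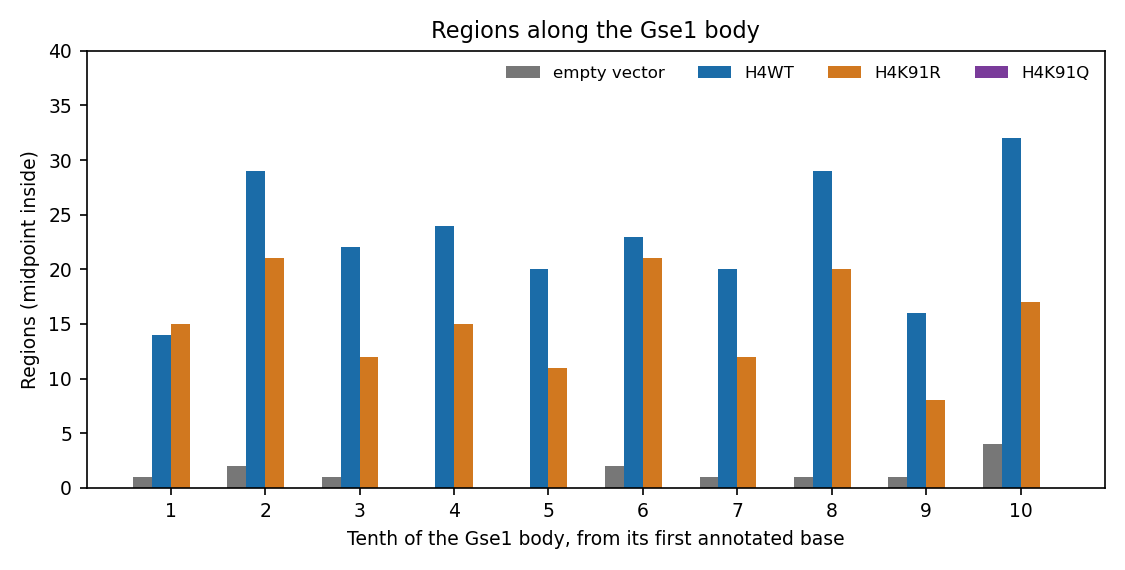
Number of regions with their midpoint in each of 10 equal parts of the Gse1 body, from its first annotated base, for the 4 lists (bars from 0). H4WT counts range from 14 to 32 and H4K91R counts from 8 to 21, and H4K91Q is at 0 in every part.

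The regions of Gse1 were numerous but of middling strength. Strength is the authors' fold enrichment over background at the peak summit, given below with its percentile in its own list, since levels of different lists cannot be compared. In H4WT the fold ran from 3.23 to 12.6 with a median of 5.68, percentile 49.7. In H4K91R it ran from 2.96 to 8.19 with a median of 5.03, percentile 37.9. Median widths were 306 bp in H4WT and 296.5 bp in H4K91R. In the rest of the window the median percentiles were 39.2 for H4WT and 38.9 for H4K91R.

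The strongest and widest H4WT region of Gse1 lay at its first annotated base, chr8:120228402-120230751, with a width of 2350 bp and a fold of 12.6, percentile 99.1. It met the H4K91R region chr8:120229113-120229877, of fold 8.03 and percentile 91.6, and also an empty-vector region of 163 bp. The first of the 3 starts in the promoter table lies 260.4 kb further on, at 120488866, and had an H4WT summit -3 bp away with a fold of 8.99, percentile 90.3. No H4K91R region covered that start, and the nearest was 484 bp off. At the second, 120535857, an H4WT region of 1328 bp had a fold of 7.54, percentile 79.1. The H4K91R region there, 53 bp from the start, had a fold of 2.96, percentile 0.131, the weakest of that list in Gse1. At the last start, 120537409, whose sequence is printed above, the H4WT region chr8:120537153-120538313 had a fold of 8.93, percentile 90.1, and the nearest H4K91R region, 385 bp away, had a fold of 5.94, percentile 68.1. H4WT thus covered all 3 listed Gse1 starts and H4K91R lay beside them.

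Irf8 spans chr8:120736358-120756694, 20.337 kb, and had 9 H4WT, 6 H4K91R, 0 empty-vector and 0 H4K91Q regions. Among 3163 genes of like length the median was 1 in H4WT and 1 in H4K91R, and Irf8 had ranks 166 and 97. Its density was 44.3 H4WT and 29.5 H4K91R regions per 100 kb. Irf8 was therefore above most genes of its size, yet far below Gse1. Among all genes its ranks were 1043 in H4WT and 855 in H4K91R. In lists of 14314 peaks each, 1 H4WT and 1 H4K91R region with its midpoint in Irf8 were left.

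The region of highest fold in Irf8 covered its first start. That H4WT region, chr8:120735670-120736802, was 1133 bp wide, with a fold of 8.62, percentile 88.2, and a summit -288 bp from the start. It contained the whole of the promoter printed above. The H4K91R region chr8:120735993-120736432 also covered the start, with a fold of 4.54, percentile 18.0, and a summit at -264 bp. The same start thus carried a strong region of its list in H4WT and a weak one in H4K91R. The strongest H4K91R region of Irf8, chr8:120751822-120752153, lay in the body, had a fold of 6.83, percentile 82.1, and met no H4WT region. At the second start, with 8 CpG, no list had a region, and the nearest H4WT and H4K91R regions were 1837 and 2207 bp away.

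The flanks of Irf8 were thinner. Between Cox4i1 and Irf8, over 62.148 kb, there were 16 H4WT, 6 H4K91R and 2 empty-vector regions. From the end of Irf8 to the end of the window there were 51, 22 and 6, and no protein-coding gene. There only 11 of 51 H4WT regions met an H4K91R region (21.6%, interval 11.3 to 35.3), less than over the whole H4WT list, where 38.5% did. The intervals here and below are exact 95% Clopper-Pearson intervals and cover counting error only.

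Crispld2 spans chr8:119992438-120052794 and begins 7563 bp before the window. Its 60.357 kb body had 21 H4WT, 11 H4K91R, 1 empty-vector and 0 H4K91Q regions. Among 2051 genes of like length the medians were 2 and 1 for H4WT and H4K91R. Both lists had a region over the Crispld2 start, with summits -84 bp and 3 bp from it, a fold of 5.64 (percentile 48.6) in H4WT and of 5.43 (percentile 53.6) in H4K91R. A second region lay a little further into the gene in both lists. The start of Crispld2 was thus of middle strength in both.

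The strongest H4WT region of the whole window, chr8:120062679-120063310, lay in the gap between Crispld2 and Zdhhc7, with a fold of 13.0, percentile 99.3. It met an H4K91R region and also the empty-vector region chr8:120062850-120063158, which had a fold of 6.87, percentile 94.8 of the empty-vector list. The place of highest H4WT fold was therefore also among the strong places of the control, and the part of the control signal in it was not tested.

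Zdhhc7 was the member with more H4K91R than H4WT regions. It spans chr8:120081091-120103900, 22.81 kb, and had 11 H4K91R, 6 H4WT, 0 empty-vector and 0 H4K91Q regions. In H4K91R this was rank 16 among 3151 genes of like length, and in H4WT rank 354. The H4K91R regions were weak, with a median percentile of 16.9 and a highest of 58.3, and 5 of 11 met an H4WT region. With the lists limited to a −log10 q of 5 or more, 4 regions remained in each list, and the excess was gone.

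At the Zdhhc7 start the lists differed in strength. An H4WT region just downstream of the start, chr8:120100844-120101364, had a fold of 12.0, percentile 98.5, and ended 108 bp from the start. The H4K91R region at the same place, chr8:120100935-120101419, had a fold of 4.01, percentile 3.71. A second region on the other side of the start was called in both lists, with percentiles of 53.1 in H4WT and 15.9 in H4K91R. Neither list had a region on the start base itself.

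Gins2, Emc8 and Cox4i1 are short and carried few regions. Gins2, chr8:120581266-120589075, had 4 H4WT and 1 H4K91R regions. Its far end, at 120589075, was covered in both lists, by chr8:120588651-120589122 with a fold of 6.25 (percentile 62.1) in H4WT and by chr8:120588605-120589176 with a fold of 7.14 (percentile 85.6) in H4K91R. By percentile of fold it was thus a place that stood higher in the H4K91R list than in the H4WT list. The other 3 H4WT regions of Gins2 met no H4K91R region.

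Emc8, chr8:120653914-120668087, and Cox4i1, chr8:120668225-120674209, have ends only 137 bp apart. Emc8 had 3 H4WT and 1 H4K91R regions, and Cox4i1 had 1 of each. On the Emc8 side of the shared gap the H4WT region chr8:120667605-120668064 had a fold of 9.63, percentile 93.5, and the H4K91R region within it had a fold of 5.24, percentile 46.2. On the Cox4i1 side the folds were 5.21 in H4WT (percentile 36.9) and 4.31 in H4K91R (percentile 11.8). Regions of both lists thus flanked the gap without covering it. As Emc8 lies within the predicted gene Gm27021, its body regions are shared with that gene.

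No H4K91Q region was called in a member, and those of the window formed 1 group. Its 6 regions lay within 11.59 kb, chr8:120190997-120202586, in the gap between Cibar2 and Gse1, 25.9 kb before Gse1. No other H4K91Q region was called for 603 kb before the group or 897 kb after it. The folds in order along the chromosome were 5.43, 5.33, 6.36, 7.10, 6.95 and 4.17, at percentiles 59.1, 57.2, 77.3, 85.8, 84.9 and 19.1 of the H4K91Q list. The nearest annotated gene was the long noncoding RNA A330074K22Rik, 1848 bp away, which ends 270 bp before Gse1.

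That group was also where H4K91R was strongest. The 3 H4K91R regions of highest fold in the window lay there: chr8:120191673-120192614 with a fold of 18.9 (percentile 99.5), chr8:120199555-120200702 with 11.4 (percentile 97.4) and chr8:120191051-120191465 with 10.4 (percentile 96.4). Of the 6 H4K91Q regions 5 met an H4K91R region and 4 met an H4WT region. The whole-list shares for H4K91Q were 54.0% and 19.5%. None met an empty-vector region, as 0.755% of the whole list did. The 5 H4WT regions of this stretch had percentiles from 22.4 to 82.6, and no empty-vector region was called between Cibar2 and Gse1.

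H4WT and H4K91R shared many places in the window. Counted at an overlap of 1 bp or more, 184 of 401 H4WT regions met an H4K91R region (45.9%, interval 40.9 to 50.9), against 38.5% of the whole H4WT list. In the other direction 194 of 254 H4K91R regions met an H4WT region (76.4%, interval 70.7 to 81.5), against 55.2% of the whole H4K91R list. Requiring an overlap of 50% of both regions lowered these shares to 31.7% and 50%, against 23.8% and 33.5% of the whole lists. In the Gse1 body, at 1 bp, the shares were 52.4% (120 of 229) and 84.2% (128 of 152). With lists of equal length the shares were 39.3% (H4WT meeting H4K91R, interval 29.1 to 50.3) and 57.4% (the reverse, interval 44.1 to 70.0), against 33.9% and 34.3% of the whole lists. Limited to peaks whose −log10 q reached 5, the shares were 31.9% and 78.8%, against 30.2% and 56.5% of the whole lists. Density here was high too, and its part in these shares was not tested. With 6 H4K91Q regions in the window, the share of other regions meeting one could not be large. It was 4 of 401 for H4WT (0.998%, against 4.14% of the whole list). For H4K91R it was 4 of 254 (1.57%, against 15.8%). In reverse, 4 of the 6 H4K91Q regions met an H4WT region and 5 met an H4K91R region. The 1 Mb before the window had H4WT and H4K91R shares of 47.4% and 69.3%, and the 1 Mb after it 41.0% and 69.8%, so sharing of this size extended past its bounds.

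Joined over the 3 tagged lists, the window held 454 places. Of these, 217 (47.8%) belonged to H4WT and no other tagged list, 173 (38.1%) to H4WT and H4K91R together, and 59 (13.0%) to H4K91R and no other. All 3 lists together held 3 places, and H4K91Q had 1 place alone and 1 with H4K91R only. The genome's 94714 places were divided otherwise: 44.8% to H4WT, 23.2% to H4WT and H4K91R, 17.7% to H4K91R and 6.81% to H4K91Q. The share held by H4WT with H4K91R was higher in the window, and the share of H4K91Q alone was 0.220%.

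Shared regions were stronger and wider than unshared ones in their own list. In H4WT the median percentile of fold was 55.6 for the 184 shared and 35.1 for the 217 unshared regions, with median widths of 345 and 241 bp. For H4K91R the percentiles were 40.8 for 194 shared and 29.8 for 60 unshared regions, with widths of 295 and 235.5 bp. Of the 81 H4WT regions in the top 20% by fold, 57 (70.4%) were shared, and of the 80 in the lowest 20%, 29 (36.3%) were. The H4K91R contrast was smaller, with intervals that overlap. There 44 of 50 in the top 20% (88%, interval 75.7 to 95.5) and 36 of 50 in the lowest 20% (72%, interval 57.5 to 83.8) were shared. A wider region meets another more easily at 1 bp, and the part of width in these differences was not tested. Where regions met, the H4WT and H4K91R summits were a median of 71.5 bp apart, against 82 bp over the whole lists.

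**Figure D5:**
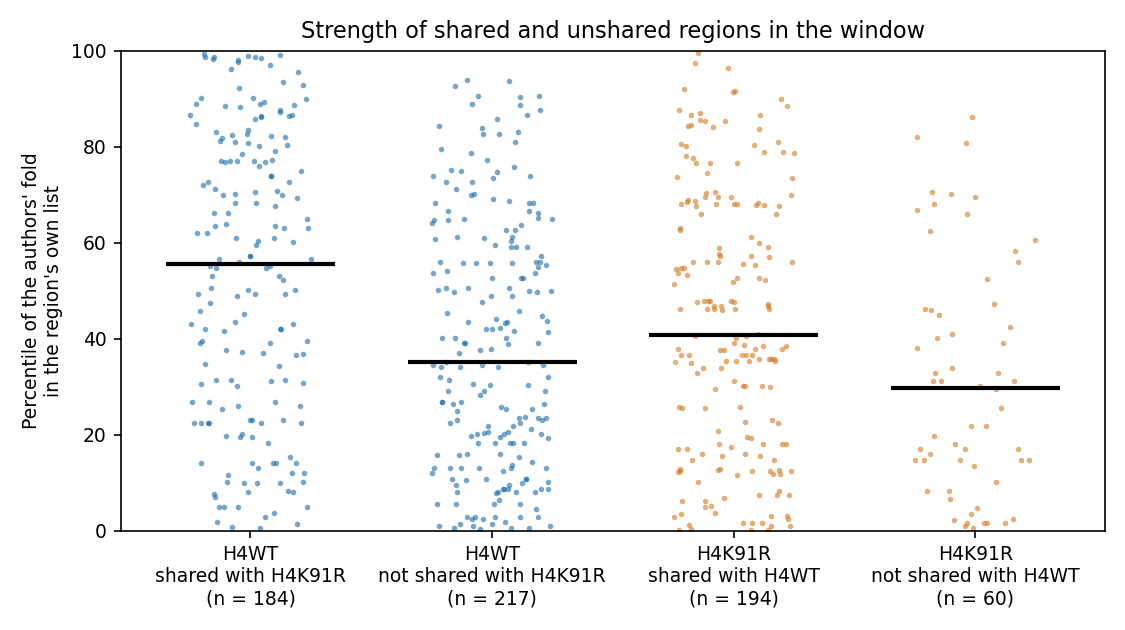
Percentile of the authors' fold in a region's own list (vertical axis, 0 to 100) for the window's H4WT and H4K91R regions, divided by whether they met a region of the other list; points are regions, spread sideways for display, and bars are medians. The medians are 55.6 and 35.1 in H4WT and 40.8 and 29.8 in H4K91R, and both classes span nearly the whole range.

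Most empty-vector regions of the window coincided with tagged ones. Of the 24 in the window, 21 met an H4WT region (87.5%, interval 67.6 to 97.3), against 70.0% of the whole list, and 12 met an H4K91R region (50%, interval 29.1 to 70.9), against 43.2%. All 13 in the Gse1 body met an H4WT region and 7 met an H4K91R region. None met an H4K91Q region, as 3.43% of the whole list did. They were short, with a median width of 167 bp, and their highest fold, 7.18 at chr8:120505168-120505449 in Gse1, stood at percentile 97.1 of their list. In reverse only 21 of 401 H4WT regions (5.24%, interval 3.27 to 7.89, against 3.01% of the whole list) met one. So did 12 of 254 H4K91R regions (4.72%, interval 2.46 to 8.11, against 2.56%). The empty-vector list is so much shorter that these shares could not be large. Both were above those of the whole lists, but the H4K91R interval included the whole-list share.

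Other genes of the members' families mostly had few regions each. Their counts stand beside shares over all genes of 66.5% with an H4WT region and 50.7% with an H4K91R region. The family lists are not tested. Of 8 other interferon regulatory factor genes, all 8 had an H4WT region and 7 an H4K91R region, with the most, 5 in H4WT, in Irf5. Irf8 with 9 and 6 regions thus had a higher count than any of them. The counts were not scaled to length, which ran from 3.317 to 107.714 kb in these genes, against 20.337 kb for Irf8. Among 23 other palmitoyltransferase genes of the DHHC family, 21 had an H4WT and 15 an H4K91R region. Zdhhc18 had 11 in H4WT and 2 in H4K91R, and Zdhhc17 had 1 in H4WT, 5 in H4K91R and 4 in H4K91Q, so Zdhhc7 was not alone in having more H4K91R regions.

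For 11 genes of the LSD1 and BRAF-HDAC corepressor complexes to which Gse1 belongs, the counts were 11 in H4WT and 6 in H4K91R, and the highest was 5, in Rcor2. None of them came near the count of 229 of Gse1. These counts were not scaled to gene length, and Rcor2 spans 7.832 kb against 352.883 kb for Gse1. They do not show that Gse1 was denser than these genes. Of 9 other ER membrane complex genes 8 had an H4WT and 5 an H4K91R region, with the most, 6, in Emc10. Of 15 other genes for cytochrome c oxidase subunits 9 had an H4WT and 5 an H4K91R region. Of the other 3 GINS genes 2 had an H4WT region and none an H4K91R region. Their H4K91Q counts were 0 except for 2 palmitoyltransferase genes, and the shares over all genes given above (66.5%, 50.7% and 6.91%) are the background.

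The genes most like each main member were taken by the distance between their log2(regions + 1) over the 4 lists, among genes of like length outside the window. For Gse1 these were Rbfox3 with 67 H4WT and 39 H4K91R regions (distance 3.01), Zfp423 with 45 and 39 (3.13), Prdm16 with 57 and 43 (3.23), Cdh23 with 46 and 26 (3.54) and Cacna1a with 51 and 33 (4.44). Zfp423 and Cacna1a are on chromosome 8 too. Even the nearest of the 384 genes compared was thus far from Gse1. For Irf8, Exoc7 had the same counts in all 4 lists, and Nos3, Ubtf, Plcd1 and Kcnh3 differed by 1 H4WT region, so Irf8 had many near equals among 2904 genes.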

How the data were processed

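HA ChIP-seq peak lists of 4 of the 36 samples were used, all from mouse embryonic stem cells with 1 library per group, and groups were taken from the sample titles; the other 32 samples were not analysed here. Peaks were called with MACS2 on mm10, per the submitters' processing notes, and by their names each pulldown was called singly, with the matching input as background. Which aligner, MACS2 version, treatment of duplicates and q limit were used is not given in the sources used here. Without read numbers in the deposited lists the depth is unknown, and a longer list may come from a deeper library.

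Each deposited peak has a score, which is 10 times its −log10 q rounded down and was not used further. The authors' fold enrichment, a ratio at the summit, served for ranks within a list. The authors' −log10 p was not used, and the deposited −log10 q filtered and shortened lists in the alternatives.

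Peaks were compared by overlaps of at least 1 bp, placed by midpoint, and joined to RefSeq genes and promoters of GRCm38.p6 by position. Promoters were matched to genes by gene identifier, and members were picked by symbol. The software was Python 3.11.15, NumPy 2.4.6, pandas 2.3.3, SciPy 1.17.1 and Matplotlib 3.10.9. The gene table gives no strand, so Gins2, Emc8 and Cox4i1 were placed by both ends. Shares have exact 95% Clopper-Pearson intervals. With 1 library per group, groups were not tested against each other. The overlap step was tested on 2000 simulated regions and recovered 100% of 1000 planted overlaps.

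All 7 members and the other protein-coding genes of the window were named by rule, with the 5 genes nearest in counts to Gse1 and to Irf8, passing over predicted genes, the 5 strongest regions per list, and family genes with the most regions. Zdhhc17, Sfi1, Gm37013 and the richest H4WT window were named after their values were seen. The members, gene lists and motifs were chosen with earlier results of these data known. The alternatives tried were peaks of −log10 q at or above 5, tagged lists of equal length, removal of regions meeting the empty vector, other overlap and joining rules and other gene windows; the outermost gene end, the whole-list and all-gene shares under each setting, and the ranks of Gse1 and of the window under the first 3 were chosen after seeing the data.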

Additional observations from a re-analysis of the deposited data

How the results depend on the processing

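Of 149 values recomputed for 39 results, 107 stayed within 1.5 times the reported count or within the counting interval of the reported share. Of these, 32 were computed without tagged regions that meet the empty vector, a setting that could move little, since only 21 H4WT and 12 H4K91R regions of the window met one. Counts of 0 could not move where regions were only removed, and equal length left the H4K91Q list unchanged. Gse1 kept rank 1 in H4WT and in H4K91R under each alternative tried for it. Each group was 1 library, depth is unknown, and no replicate could be left out. No paired analysis was possible because each group had 1 library and the results come from no test. The cause of the changes below was not tested, beyond the smaller lists that the first 2 settings make by construction.

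With a −log10 q of 5 or more, the lists held 853 empty-vector, 49481 H4WT, 26265 H4K91R and 10504 H4K91Q peaks. Empty-vector counts were then 9 in the window, 3 in the Gse1 body, 3 beyond Irf8 and 1 member. H4WT had 5 regions with their midpoint in Irf8, where the full list had 8 counted so; the other Irf8 counts here are also by midpoint. H4K91R had 132 in the window, rank 2, with 80 in Gse1, 2 in Irf8 and 9 beyond Irf8. The share of H4WT regions meeting H4K91R was 31.9%, that of H4K91Q regions meeting H4K91R 100%, and places held by H4WT with H4K91R numbered 91 and by H4K91R alone 27.

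With the tagged lists shortened to 14314 peaks each, H4WT had 89 regions in the window, rank 7, with 64 in Gse1, 1 in Irf8, 4 between Cibar2 and Gse1 and 1 beyond Irf8. H4K91R had 61, rank 4, with 43, 1, 7 and 1, and it held 4 members by body and 2 by start. The share of H4WT regions meeting H4K91R was 39.3%, and the reverse share 57.4%. Places numbered 54 for H4WT alone, 34 for H4WT with H4K91R, 23 for H4K91R alone and 1 for all 3 lists.

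Windows of 2 kb at gene starts gave 1 member with an empty-vector region. An overlap of 50% of both regions gave shares of 31.7% (H4WT meeting H4K91R) and 50% (the reverse), while a distance of up to 500 bp gave 60.3% and 83.9%, and 100% for H4K91Q meeting H4K91R. Joining across 500 bp left 124 places for H4WT alone and 33 for H4K91R alone. No member had an H4K91Q region under any alternative tried. Only the changed gene windows could have added one, since the other settings remove regions or leave the H4K91Q list as it is.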
